A study of Mus musculus with 6 samples.

Results

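RPL10A-STAMP marks mRNAs in living cells by fusing rAPOBEC1, a cytidine deaminase that turns C into U in RNA, to RPL10A, a protein of the large ribosomal subunit. The genes described here were those that carried such edits in each of the 3 RPL10A-STAMP libraries: 9166 of the 31053 genes listed. The measurement was EPR, the C-to-U edits of a gene divided by its counted reads, and genes with any edit in a library count as edited there. All 3 libraries were made from wild-type C57BL/6J cortical neurons of embryonic day 18, plated at 600000 cells per well in six-well plates, given floxuridine at day in vitro (DIV) 3 to limit dividing cells, infected at DIV 6 with an adeno-associated virus (AAV) that carries the fusion under a doxycycline-inducible promoter, induced with 1 µg per ml doxycycline (Dox) for 48 h and collected at DIV 14. A synapsin promoter in this vector system drives the transactivator, so that expression is directed to neurons. The sample titles also carry NT, the study's abbreviation for no treatment. Virus and Dox were shared by all 3 libraries, and a library without the fusion was not used here. The edits that a deaminase would leave away from ribosomes were therefore not measured.

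Ribosomes carry the fused enzyme along an mRNA as they translate it, and Cs that come within reach can be deaminated. APOBEC1 is known to favour Cs in AU-rich surroundings. The EPR of a gene can thus depend on its translation and also on the Cs that its transcript offers. In the text, UTR stands for untranslated region, and 3 values in a row are those of replicates 1, 2 and 3. Cortical neurons rely on mRNAs for receptors, channels and synaptic proteins, and also on abundant housekeeping mRNAs for ribosomes, proteasomes and mitochondria.

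Genes were ordered by EPR itself, so the order is a description and no test was attached to it. In each library the 9166 genes were given a percentile from 0 (lowest EPR) to 100 (highest EPR), and the median of a gene's 3 percentiles, called its percentile below, fixed its place. The order was cut into a bottom class of 3055 genes, a middle class of 3056 and a top class of 3055. Edits and reads were not used separately, so the depth of each ratio is unknown and its error can be given only as the spread over the 3 libraries. The sources name these replicates biological in one place and technical in another, so this spread may be technical. EPR is not an RNA level, and a gene listed at 0 may have no edits or no reads.

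Outside the ordered genes, 1454 genes were edited in 2 libraries, 1447 in 1 and 18986 in none. Just inside the rule were genes whose lowest EPR was close to 0, such as *mt-Nd6* at 0.000500, *Psmc3* at 0.000507 and *Vip* at 0.000540. Genes just outside it, edited in 2 of 3 libraries, had a median EPR of 0.0114 in the libraries that edited them, against 0.0139 for the ordered genes. Genes edited in 1 library had a median of 0.0192 there. The genes outside the rule were thus not simply those with the lowest non-zero ratios. Of the ordered genes, 97.9% were protein-coding, against 54.8% of the genes edited in none.

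The labelled cell type was checked with marker genes, although EPR reports edited mRNA of infected cells and not cell numbers. Of 12 neuronal markers, 11 were edited in all 3 libraries, with a median percentile of 79.8, 77.1 and 75.6 in replicates 1, 2 and 3. Of the 11, 7 were in the top class, *Rbfox3* and *Gad2* in the middle and *Tubb3* and *Gad1* in the bottom. *Nefl*, a neurofilament subunit, had EPR values of 0.0480, 0.0621 and 0.0615, and *Slc17a7*, the vesicular glutamate transporter of cortical excitatory neurons, 0.0431, 0.0534 and 0.0542. *Slc32a1*, the vesicular GABA transporter, was at 0 in replicate 2 and so was not ordered. Of 10 astrocyte markers 7 were ordered, including *Aqp4* with 0.0568, 0.0617 and 0.0518 and *Gja1* with 0.107, 0.0439 and 0.0402. The median percentile of the 7 was 92.4 in replicate 1, 79.7 in replicate 2 and 73.5 in replicate 3. Of the 7, 4 were in the top class, *Gfap* and *Glul* in the middle and *Fabp7* in the bottom. Astrocyte markers thus carried edits in all 3 libraries, although the promoter is neuronal. Of 11 oligodendrocyte lineage markers only *Olig1* and *Mbp* were ordered, and *Mog*, *Mag* and *Sox10* were at 0 throughout. None of 10 microglial markers and none of 9 endothelial and fibroblast markers was edited in all 3 libraries. Of these, 7 and 9, respectively, were at 0 in every library. Among all genes listed, 61.1% were at 0 in every library and 29.5% were edited in all 3. The oligodendrocyte and microglial counts at 0 were near that share, so they say little about the cells present. The part of astrocyte RNA in the results below was not tested.

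The windows below show the letters that the comparison of transcripts in a later paragraph rests on. They are the middle 90 bases of the longest coding exon of *Gabra3*, a GABA-A receptor subunit from the top of the order, and of 3 proteasome subunits from its bottom, whose 3 percentiles lay within 10 points. Capitals mark each C with A or T on both sides (ACA, ACT, TCA or TCT on the sense strand; neighbouring hits may share a base). Sequences are given 5′ to 3′ from the GRCm38 genome as DNA.
Gabra3 (chrX:72434772-72434861, minus strand): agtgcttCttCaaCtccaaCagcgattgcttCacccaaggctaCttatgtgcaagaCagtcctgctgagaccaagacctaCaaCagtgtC
Psmc1 (chr12:100119123-100119212, plus strand): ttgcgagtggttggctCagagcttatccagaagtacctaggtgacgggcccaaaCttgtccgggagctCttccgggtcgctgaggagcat
Psmc2 (chr5:21803127-21803216, plus strand): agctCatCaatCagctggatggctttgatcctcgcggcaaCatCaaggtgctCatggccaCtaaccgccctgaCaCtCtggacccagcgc
Psmc5 (chr11:106261522-106261611, plus strand): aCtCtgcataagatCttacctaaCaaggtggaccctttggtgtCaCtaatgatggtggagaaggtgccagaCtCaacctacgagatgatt

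The receptor window held 10 such Cs and the 3 proteasome windows 3, 10 and 8, so these short stretches did not set the receptor apart. Windows chosen in the same way in 8923 ordered nuclear protein-coding genes held at least 1 such C in 98.1% of cases, with a mean of 5.52 in the bottom class, 5.73 in the middle and 6.00 in the top. Over whole transcripts, *Gabra3* held 87.2 such Cs per kb, whereas *Psmc1*, *Psmc2* and *Psmc5* held 64.1, 64.4 and 59.3.

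In every library, EPR in the top class was between 4 and 5 times that in the bottom class. The median EPR of the bottom class was 0.00581, 0.00692 and 0.00734 in replicates 1, 2 and 3 (0.00669 ± 0.000790, SD, n = 3). That of the middle class was 0.0116, 0.0145 and 0.0154 (0.0138 ± 0.00199). That of the top class was 0.0256, 0.0341 and 0.0356 (0.0318 ± 0.00538). Replicate 1 was the lowest library in each class and replicate 3 the highest, and the classes did not overlap in these medians. The top class exceeded the bottom class 4.40-fold, 4.92-fold and 4.85-fold in the 3 libraries, a description of the ordering itself. The genes at the borders were *Zfp850* and *Atad5*, with percentiles of 65.4 and 65.3 on the upper border, and *Cnpy4* and *Klf13*, with 33.61 and 33.60 on the lower.

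**Figure D1:**
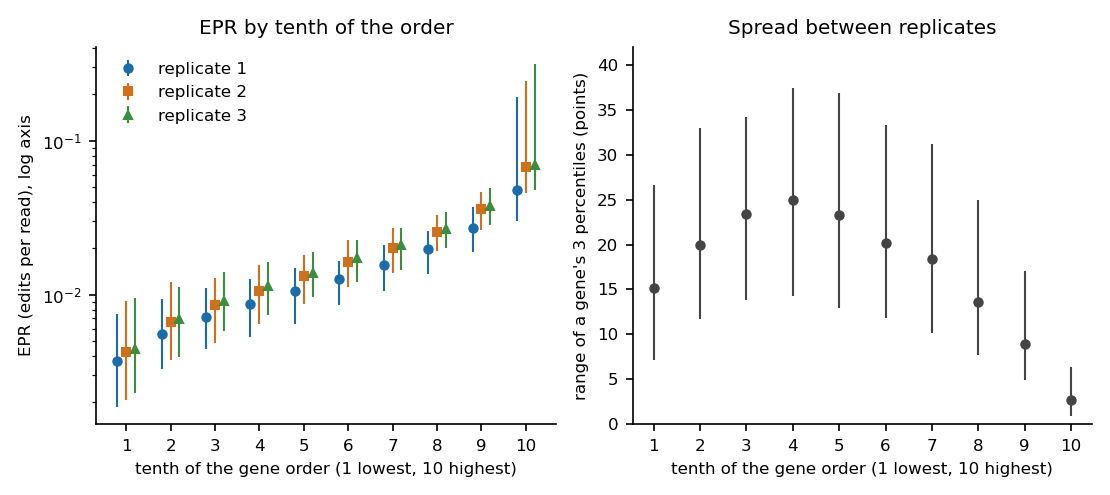
Left, median EPR (log axis) of the 9166 genes cut into 10 groups of equal size along the order, for each replicate, with bars from the lowest to the highest 10% of genes. Right, median range of a gene's 3 percentiles in the same groups, with bars from the lower to the upper quartile; the range was widest in group 4 (24.9 points) and narrowest in group 10 (2.65 points).

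The replicates ordered genes alike in the top class and loosely elsewhere. Across all 9166 genes, the rank correlation of EPR between libraries was 0.750 (replicates 1 and 2), 0.756 (1 and 3) and 0.780 (2 and 3); genes are not independent replicates, and no p is given. Within the top class it was between 0.635 and 0.701, within the middle class between 0.115 and 0.224 and within the bottom class between 0.135 and 0.164. The range of a gene's 3 percentiles had a median of 8.50 points in the top class, 21.6 in the middle and 20.1 in the bottom. A narrower range of EPR values within a class lowers such a correlation, so the spread in EPR itself is also given: the coefficient of variation over the 3 libraries had a median of 25.2% in the top class, 28.5% in the middle and 39.2% in the bottom. The relative spread was thus widest among the least edited genes. Ordered genes numbered 2925 with a range under 10 points and 649 with a range over 50.

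Of all ordered genes, 4871 (53.1%) fell in the same class in all 3 libraries when each library was cut on its own, and 581 (6.34%) were in the top class of a library and the bottom class of another. Of the top class, 68.8% were in that class in every library, compared with 53.8% of the bottom and 36.6% of the middle class. These shares include the libraries that set the order. In the shares that follow, the library left out still helped to choose the genes, which had to be edited in all 3. When genes were ordered by 2 libraries and looked up in the library left out, 79.4%, 80.5% and 81.0% of the top class were again in the top class of replicates 1, 2 and 3. The corresponding shares were 70.5%, 72.3% and 72.5% for the bottom class and 57.1%, 58.0% and 58.9% for the middle class. At most 3.70% of the top or bottom genes were at the opposite end of the library left out. The median EPR in the library left out kept the order of the classes, with 0.00632, 0.0114 and 0.0250 for bottom, middle and top in replicate 1.

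The 649 genes with a range over 50 points did not come from a single library. Replicate 1 stood apart from the other libraries for 250 of them, replicate 2 for 205 and replicate 3 for 194. Among protein-coding genes the 5 widest ranges belonged to *Vps33b* (92.6 points), *Ptchd4* (88.8), *S100a11* (88.1), *Zfp59* (87.1) and *Wipi1* (85.7). *Vps33b*, which encodes a vesicle-sorting protein, had EPR values of 0.00185, 0.0616 and 0.0301, low in replicate 1 and high in the others. *Ptchd4* had 0.0373, 0.00353 and 0.0640, with replicate 2 low. *S100a11*, a calcium-binding protein, had 0.0870, 0.0213 and 0.00518, a different level in each library. The percentile of such a gene is that of its middle library only.

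The upper end of the order was occupied by ratios that exceed 1, which means more edits than counted reads. In all 3 libraries, 30 genes had an EPR above 1, and 58 had in at least 1 library. Of the 30 genes, 25 were protein-coding, 5 were encoded by the mitochondrial genome, and 10 shared more than 50% of their exon bases with another annotated gene. The part of shared exons in these ratios was not tested. The 10 highest genes were 5 of the mitochondrial genome (*mt-Co2* and *mt-Co3* of cytochrome c oxidase, *mt-Atp6* and *mt-Atp8* of the ATP synthase and *mt-Nd4l* of complex I) and 5 of the nuclear genome. *Prrt2*, a presynaptic protein gene (chromosome 7, 127017531 to 127021211, minus strand, GRCm38), had EPR values of 21.8, 23.2 and 32.8, and 92.4% of its exon bases lay in *Gm42742* as well. *Adnp*, which encodes a homeobox protein needed in brain development, had 9.56, 13.5 and 18.2 and shared 82.1% of its exon bases with *Gm20716*. The other nuclear genes among the 10 were *Gng10*, a G protein gamma subunit, *Cpne1*, a calcium-dependent membrane-binding protein, and the long intergenic noncoding RNA *Gm7292*, with EPR values of 14, 6.29 and 15, of 9.80, 14.3 and 12.2 and of 7.43, 10 and 13.4. *Gng10* and *Cpne1* shared 72.0% and 84.1% of their exon bases, and *Gm7292* shared none. Of the 46 ordered genes that shared more than 50% of their exon bases, 37 were in the top class, and their median percentile was 98.0, against 48.7 for the 8958 genes that shared at most 10%.

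The 13 mRNAs of the mitochondrial genome, which are translated by mitochondrial and not by cytosolic ribosomes, were all ordered and fell at opposite ends: 6 in the top class, 1 in the middle and 6 in the bottom. *mt-Atp8*, a subunit of the ATP synthase, had the highest percentile of all ordered genes, with EPR values of 134, 764 and 459.5 (452 ± 315, SD, n = 3), so that its replicates differed by several fold. In replicate 1, *mt-Co3* (175) and *mt-Nd4l* (151) stood above it. *mt-Co2*, a subunit of cytochrome c oxidase, had 71, 88.6 and 115 and *mt-Nd3*, a subunit of complex I, had 0.402, 0.667 and 0.579. The genes below *mt-Nd3* were far lower. *mt-Nd1* had 0.00433, 0.00427 and 0.00464 and *mt-Cytb* 0.00474, 0.00474 and 0.00518, with SDs of 0.000201 and 0.000255. *mt-Nd6*, encoded on the strand opposite to the other 12, had the lowest percentile of all ordered genes, with 0.000975, 0.000500 and 0.000503. The percentiles of these genes had a median range of 0.131 points, but genes at either end of the order have little room to move in percentile. The median percentile of the 13 was 56.1, 42.4 and 43.5 in replicates 1, 2 and 3. Reads that fit up to 10 places were kept and reads per gene are unknown. Ratios far above 1 are therefore uncertain, however close the replicates. Exon overlap was 0% for *mt-Co2* and 0.128% for *mt-Co3*, and the origin of their ratios was not tested.

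**Figure D2:**
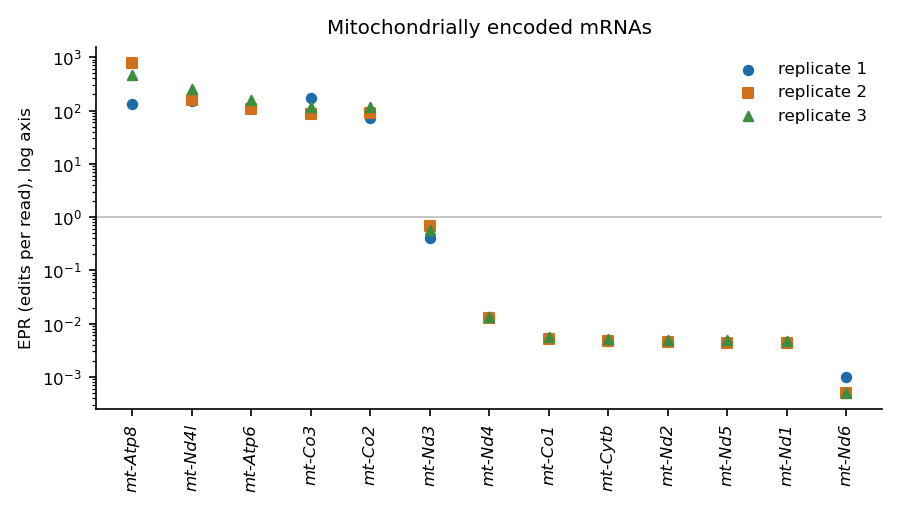
EPR (log axis) of the 13 mitochondrially encoded mRNAs in each replicate, ordered by percentile; the grey line marks an EPR of 1. The 5 genes on the left had EPR values of 71 or more in every replicate, and mt-Nd6 on the right had values of 0.000975 or less.

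Among nuclear protein-coding genes with an EPR of at most 1 in every library and little exon overlap, the 10 highest were *Gm10073*, *Gm4724*, *3300002I08Rik*, *Gm14698*, *Tes3-ps*, *Gm12184*, *Zfp433*, *Entpd1*, *Cdk17* and *Atp6v0c*. *Cdk17*, a cyclin-dependent kinase found in neurons (chromosome 10, 93160875 to 93267071, plus strand), had 0.363, 0.425 and 0.404 (0.398 ± 0.0314, SD, n = 3). *Entpd1*, an ectoenzyme that breaks down extracellular ATP, had 0.474, 0.485 and 0.602. *Atp6v0c*, the proteolipid of the vesicular proton pump, had 0.493, 0.391 and 0.289. The 3 libraries of *Cdk17* lay close together, whereas those of *Gm14698*, at 0.167, 0.750 and 1, spread widely. Several of the 10 are predicted genes or pseudogene-like models, and reads that fit up to 10 places were kept, so their ratios are uncertain.

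Genes in the middle of the order with close replicates included well-known neuronal genes. *Camkk2*, a kinase that activates other calmodulin-dependent kinases, had EPR values of 0.0116, 0.0152 and 0.0154 and a range of 1.56 points. *Mapt*, the gene of the microtubule-associated protein tau, had 0.0110, 0.0150 and 0.0161. *Cacna1a*, the pore-forming subunit of P/Q-type calcium channels, had 0.0105, 0.0151 and 0.0159. In each of these genes replicate 1 was the lowest. *Homer2*, a postsynaptic scaffold protein, *Sv2a*, a synaptic vesicle glycoprotein, and *Stmn3*, a stathmin, had percentiles of 49.97, 49.4 and 48.8. The other genes chosen by this rule were *Usp14*, *Srsf9*, *Egr3* and *Pfkp*, with percentiles between 48.8 and 50.04.

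The 10 lowest genes were led by *mt-Nd6*, described above. *Dnajc2*, a ribosome-associated chaperone, had 0.00271, 0.000669 and 0.000635. *Eif4a3*, a core protein of the exon junction complex (chromosome 11, 119288363 to 119300089, minus strand), had 0.00114, 0.00151 and 0.00131 (0.00132 ± 0.000184, SD, n = 3). *Upf3a*, a factor of nonsense-mediated decay, had 0.00107, 0.00244 and 0.00118, and *Rae1*, an mRNA export factor, had 0.00118, 0.00423 and 0.00118. *Eif4a3* was low in every library, with percentiles within 0.284 points. Others owed their place to 2 low libraries: *Ftsj3* had 0.000912, 0.00912 and 0.000976, *Atp5e* 0.00652, 0.00126 and 0.00123 and *Trmt1l* 0.0126, 0.00146 and 0.00157. *Slc39a7*, *Pqbp1* and the antisense gene *Gm14703* completed the lowest genes, with percentiles of 0.224, 0.267 and 0.0818.

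Lists of genes with a shared function were then placed in the order: 37 lists held 1354 different genes, of which 1248 were ordered. Among the 35 lists with at least 10 ordered genes, 18 had a median percentile above 50 and 17 below, and for 29 of them all 3 libraries lay on the same side of 50 (16 above, 13 below). All members were chosen with earlier results known, so the medians are descriptions. Single numbers in brackets after gene names are percentiles. Lists of GABA-A receptors, long noncoding RNAs, Rab GTPases, CaM kinases and pumps were the 5 highest, and those of the proteasome, immediate early genes, the respiratory chain, cytosolic ribosomal proteins and chaperones the 5 lowest.

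**Figure D3:**
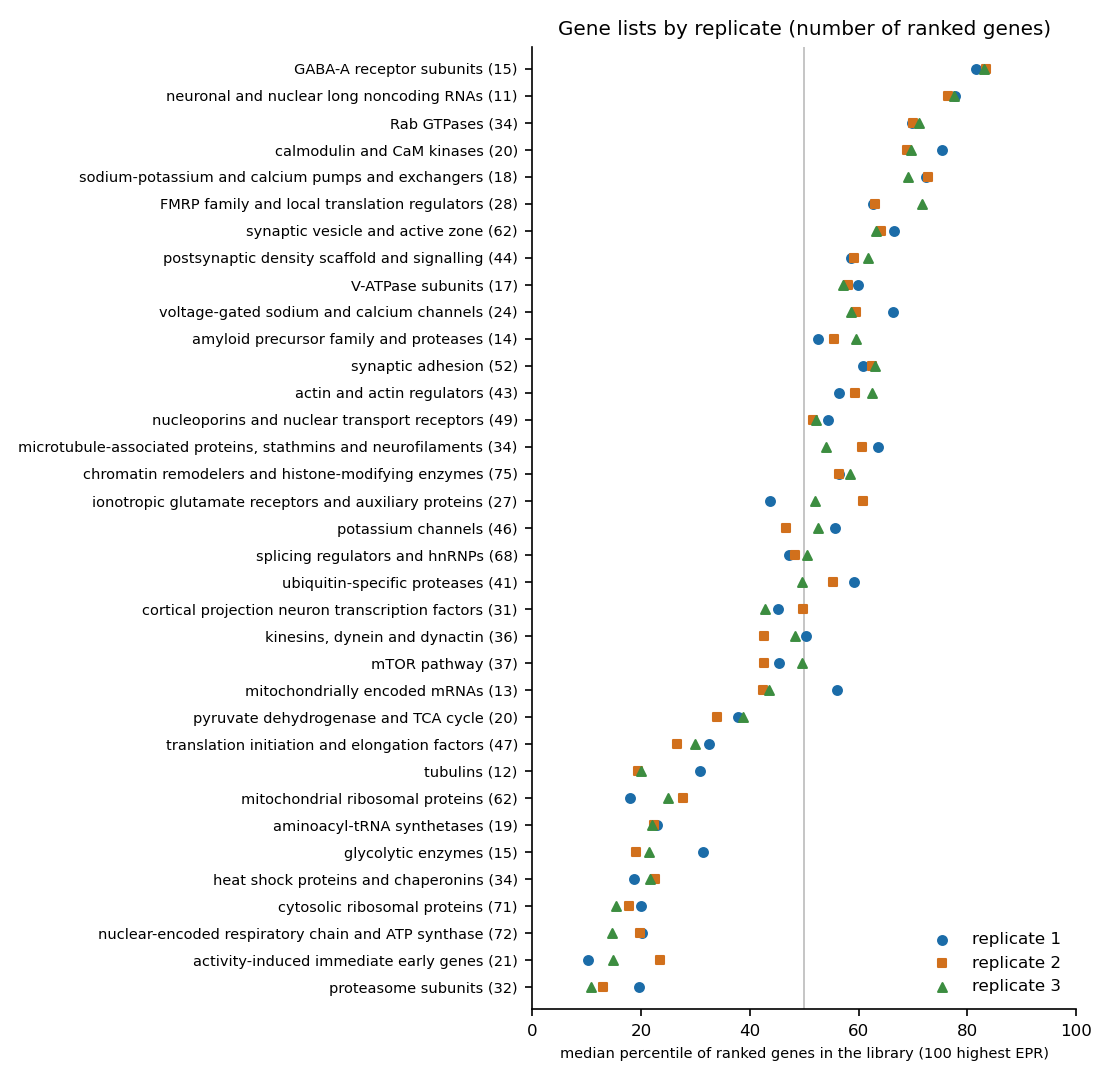
Median percentile of the ordered genes of each list in each replicate, for the 35 lists with at least 10 ordered genes (number in brackets); the grey line marks 50. GABA-A receptor subunits had medians from 81.7 to 83.5 in the 3 replicates and proteasome subunits from 10.8 to 19.6.

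GABA-A receptors are the chloride channels of fast inhibition, and their list of 15 genes, which also holds scaffold and adhesion genes such as *Gphn* and *Nlgn2*, had the highest median of these lists. Its median percentile was 81.7, 83.5 and 83.1 in replicates 1, 2 and 3. Of its genes, 10 were in the top class, 4 in the middle and 1 in the bottom. *Gabra3*, an alpha subunit, had EPR values of 0.0620, 0.0713 and 0.0772 (0.0702 ± 0.00765, SD, n = 3), lowest in replicate 1 and highest in replicate 3. Its percentile was 95.5, with a range of 1.35 points. *Gabrg1*, a gamma subunit, had a slightly higher percentile of 96.0 but spread widely, with 0.0181, 0.101 and 0.0820, so that these 2 subunits do not differ beyond their spread. *Gabrd*, the delta subunit of extrasynaptic receptors, was the lowest and the only gene of the list in the bottom class, with 0.00393, 0.0126 and 0.00817. *Nlgn2* and *Gabrg3*, next above it, were near the middle with percentiles of 50.4 and 52.1.

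Calcium signalling genes, the main readers of calcium entry in neurons, also stood high. The list of calmodulin, CaM kinases and calcineurin had a median percentile of 75.3, 68.8 and 69.6, and of its 20 genes, 12 were in the top class, 5 in the middle and 3 in the bottom. *Ppp3r1*, the regulatory subunit of calcineurin, had EPR values of 0.0949, 0.121 and 0.117, *Camk4*, a nuclear kinase, 0.0869, 0.102 and 0.0999 and *Camk2a*, the alpha subunit of CaMKII, 0.0468, 0.0590 and 0.0596 (percentile 93.4). These 3 genes were lowest in replicate 1, and their percentile ranges were 1.34 points or less. *Camk1*, *Camkk1* and *Camk1g* were the lowest with percentiles of 21.5, 25.9 and 27.0, each with a range of 19.7 points or more.

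Pumps and channels differed within their families. The list of sodium-potassium and calcium pumps and exchangers had a median percentile of 69.1, and of 18 genes, 11 were in the top class, 4 in the middle and 3 in the bottom. *Atp2b4* and *Atp2b2*, plasma membrane calcium pumps, had EPR values of 0.0461, 0.0534 and 0.0621 and of 0.0353, 0.0481 and 0.0493, respectively. *Slc8a1*, a sodium-calcium exchanger, was low at a percentile of 18.9. Sodium channel genes had a median percentile of 83.9 (8 genes) and calcium channel genes 50.7 (15 genes). By replicate, the medians were 82.7, 82.2 and 85.6 for sodium channels. Those for calcium channels were 59.4, 40.8 and 50.9, on both sides of 50. *Scn3a*, a sodium channel of immature neurons, had 0.107, 0.160 and 0.149, *Cacna1d*, an L-type calcium channel, 0.0470, 0.105 and 0.0955 and *Cacnb4*, an auxiliary subunit, 0.0519, 0.0777 and 0.0735. The lowest were *Cacnb2*, *Cacnb1* and *Cacna2d3*, auxiliary subunits with percentiles of 6.98, 8.27 and 18.5. The 46 ordered potassium channel genes spread over the whole order, from *Kcnj2* at 2.35 to *Kcnt2* at 98.9. *Kcnt2*, a sodium-activated channel, had EPR values of 0.174, 0.217 and 0.217.

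Glutamate receptor genes were spread over the order. The 27 ordered genes of ionotropic receptors and their partners had a median percentile of 43.8, 60.8 and 52.0 in replicates 1, 2 and 3, which lies on both sides of 50. The 4 AMPA receptor subunits, which carry most fast excitation, had a median of 79.4, the 4 ordered NMDA receptor subunits 37.1 and the 4 ordered kainate receptor subunits 23.8. By replicate, the medians were 81.7, 79.4 and 73.1 for AMPA, 42.4, 38.7 and 34.8 for NMDA and 29.8, 61.6 and 15.1 for kainate receptors, so that kainate stood above NMDA receptors in replicate 2. These groups were formed after the values were seen. *Gria3* and *Gria2* had EPR values of 0.0395, 0.0560 and 0.0566 and of 0.0308, 0.0401 and 0.0386, respectively, and *Cnih2*, an AMPA receptor auxiliary protein, 0.0304, 0.0409 and 0.0301. *Grin3a*, an NMDA receptor subunit of young neurons, and *Grik1*, a kainate receptor subunit, were low with EPR values of 0.00260, 0.00797 and 0.00471 and of 0.00414, 0.0214 and 0.00232, respectively. Replicate 2 of *Grik1* stood above its other libraries. *Cacng4*, an auxiliary subunit, had a percentile of 11.6. Among metabotropic receptors 4 of 7 were ordered, against 29.5% of all genes listed. They included *Grm7* with 0.0596, 0.102 and 0.0915, *Grm5* with 0.0417, 0.0437 and 0.0570 and *Grm3* at a percentile of 50.8.

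Synaptic lists were above the middle. Synaptic vesicle and active zone genes, which serve transmitter release, had a median percentile of 66.6, 64.1 and 63.2, and of 62 genes, 27 were in the top class, 26 in the middle and 9 in the bottom. *Stxbp5*, a regulator of vesicle fusion, had 0.0474, 0.0852 and 0.0889, *Syt1*, the calcium sensor of release, 0.0460, 0.0549 and 0.0613 and *Slc17a6*, a vesicular glutamate transporter, 0.0416, 0.0722 and 0.0515. *Doc2a*, a calcium sensor of spontaneous release, was the lowest with 0.00521, 0.00383 and 0.00408, and *Ppfia3* and *Cadps2* followed at 13.8 and 18.2. Postsynaptic density genes had a median percentile of 58.6, 59.1 and 61.8. *Shank3* and *Homer1*, scaffold proteins, had EPR values of 0.0658, 0.0881 and 0.0794 and of 0.0495, 0.0591 and 0.0530, respectively, and *Lrrc7*, densin, 0.0383, 0.0740 and 0.0481. *Sipa1l2*, *Grip1* and *Mpp3* were the lowest with percentiles of 2.92, 5.98 and 13.9. Of 52 synaptic adhesion genes, all ordered, 20 were in the top class, 21 in the middle and 11 in the bottom, with *Cadm2*, *Lrfn5* and *Cadm3* highest (94.2, 91.0 and 90.1) and *Flrt3*, *Flrt1* and *Lrrtm3* lowest (14.1, 14.9 and 15.4).

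Rab GTPases, which direct vesicles between membranes, had a median percentile of 69.7, 70.1 and 71.0, and of 34 genes, 18 were in the top class, 9 in the middle and 7 in the bottom. *Rab6a* of the Golgi had 0.0375, 0.0398 and 0.0432, *Rab39b* 0.0321, 0.0310 and 0.0430 and *Rab10* 0.0395, 0.0378 and 0.0424. *Rab4a*, *Rab24* and *Rab33b* were lowest, with percentiles of 14.6, 17.4 and 18.7 and ranges of 22.3 points or more. Subunits of the V-ATPase, which acidifies synaptic vesicles and lysosomes, had a median of 59.7 and reached from *Atp6v1f* with 0.00326, 0.00591 and 0.00524 to *Atp6v0c*, described above; next to these ends were *Atp6v1h* and *Atp6v0a1* (15.1 and 25.5) and *Atp6v0e2* and *Atp6v1g2* (96.6 and 95.9). The 14 ordered genes of the amyloid precursor list had a median of 57.9, with *App* itself at 0.0442, 0.0543 and 0.0624, *Itm2b* and *Sorl1* next (76.3 and 72.5) and *Apbb1*, *Ncstn* and *Itm2c* lowest (19.9, 21.1 and 39.5).

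Long noncoding RNAs were edited too, and high in the order. The 11 ordered RNAs of this list, known from neurons or nuclei, had a median percentile of 77.8, 76.5 and 77.5, and none was in the bottom class. After *2900097C17Rik*, the highest, *Xist*, the RNA of X inactivation, had 0.0665, 0.0663 and 0.0727 and *Kcnq1ot1*, an imprinted nuclear RNA, 0.0397, 0.0834 and 0.0634. *Dlx6os1*, *Pantr1* and *Miat* were the lowest with percentiles of 39.4, 43.8 and 46.4. By annotation, the 122 ordered long intergenic noncoding RNAs had a median percentile of 77.6 (79.9, 80.3 and 77.4 in the 3 libraries) and the 64 antisense RNAs 82.4, compared with 48.6 for 8970 protein-coding genes. EPR above 0 was therefore not a property of coding RNAs alone in these libraries. Only RNAs with EPR above 0 in all 3 libraries were ordered, a rule that RNAs with few reads can meet only with high ratios. Reads per gene are unknown, so the part of this rule in the high place of noncoding RNAs was not tested.

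The proteasome, the protease of ubiquitin-tagged proteins, had a median percentile of 13.8, the lowest of the 35 lists in this order. Immediate early genes, at 16.1, were lower than the proteasome when ranks were averaged (14.3 against 14.9), with genes at 0 ranked (23.1 against 24.2) and without replicate 2 (12.2 against 17.2). All 32 subunits were edited in every library. None was in the top class, 3 were in the middle and 29 in the bottom, with a median percentile of 19.6, 12.9 and 10.8 in replicates 1, 2 and 3. The 6 regulatory ATPases had a median of 5.30, the 14 core subunits 18.7 and the other 12 regulatory subunits 12.2; all 6 ATPases were in the bottom class. *Psmc1* and *Psmc2*, ATPases of the regulatory particle, had EPR values of 0.00192, 0.00361 and 0.00258 and of 0.00233, 0.00130 and 0.00263, respectively. *Psmd4*, a ubiquitin receptor, had 0.00607, 0.00118 and 0.00189, high in replicate 1. *Psma1* and *Psma3*, core subunits, and *Psmd13* were the highest with 0.0129, 0.0197 and 0.0225, with 0.0106, 0.0149 and 0.0132 and with 0.0244, 0.0168 and 0.0133.

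**Figure D4:**
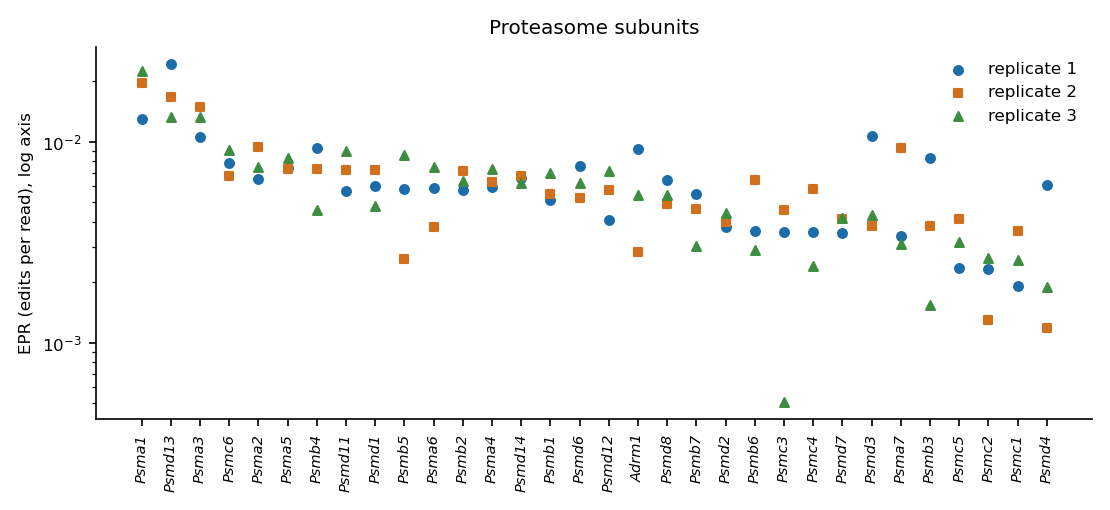
EPR (log axis) of the 32 proteasome subunits in each replicate, in order of percentile. Values lay below 0.03 in every replicate, with Psma1 at the left end and Psmd4 at the right end of the order.

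Genes of the ribosome itself were low as well. Of 71 ordered cytosolic ribosomal protein genes, 5 were in the top class, 13 in the middle and 53 in the bottom, and the median percentile was 19.9, 17.7 and 15.3. The 40 genes of the large subunit had a median of 19.9 and the 31 of the small subunit 15.0. *Rpl28*, *Rps27a* and *Rps15* were lowest with 0.00120, 0.00154 and 0.00546, with 0.00166, 0.00225 and 0.00315 and with 0.00221, 0.00385 and 0.00168. *Rpl10a* was among the highest at 0.0332, 0.0432 and 0.0551 (percentile 88.9, range 3.49 points; chromosome 17, 28328471 to 28331033, plus strand). The construct carries the *Rpl10a* reading frame, so reads of the transgene and of the endogenous gene cannot be told apart there. *Rpl13a* had 0.0712, 0.0854 and 0.0498 and shared 29.4% of its exon bases with other genes. Ribosomal protein genes have many near-identical pseudogenes, so their ratios are uncertain. Mitochondrial ribosomal protein genes had a median percentile of 17.99, 27.8 and 24.8, and of 62 genes, 4 were in the top class, 16 in the middle and 42 in the bottom. *Mrps36*, *Mrps17* and *Mrpl57* were the highest (87.2, 86.6 and 84.2) and *Mrps18c*, *Mrpl21* and *Mrpl15* the lowest (0.791, 1.19 and 1.5). Their replicates spread widely, with a median range of 24.4 points.

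Translation factors were mixed. Of 47 ordered initiation and elongation factor genes, 9 were in the top class, 11 in the middle and 27 in the bottom, with a median percentile of 28.6. *Eif2s3x*, the gamma subunit of eIF2, had 0.0922, 0.134 and 0.134, *Eif2a* 0.0869, 0.101 and 0.130 and *Eif1ax*, which helps to find the start codon, 0.0887, 0.103 and 0.111. Replicates of these 3 lay within 0.589 points of percentile or less. The 13 subunits of eIF3 were lower, with a median of 14.8, and *Eif3d* had 0.00210, 0.00265 and 0.00473. *Eef1a2*, the neuronal elongation factor, had 0.00634, 0.00302 and 0.00340. The 7 elongation factor genes had a median of 12.6 (28.3, 11.8 and 12.6 in the 3 libraries), higher in replicate 1. Aminoacyl-tRNA synthetases, which charge tRNAs, had a median of 22.8, 22.3 and 21.9, and of 19 genes, 3 were in the top class, 3 in the middle and 13 in the bottom. *Nars*, *Farsb* and *Dars* were the highest (80.3, 70.9 and 66.8) and *Tars*, *Yars* and *Rars* the lowest (4.82, 9.77 and 10.3). In contrast, genes of FMRP and of local translation had a median of 62.7, 62.9 and 71.6, and of 28 genes, 15 were in the top class, 10 in the middle and 3 in the bottom. *Purb* and *Nufip2*, RNA-binding proteins, had EPR values of 0.0538, 0.0575 and 0.0596 and of 0.0330, 0.0551 and 0.0627, respectively, and *Cpeb3*, a regulator of polyadenylation, 0.0390, 0.0536 and 0.0464. *G3bp1*, *Fxr1* and *Larp1* were the lowest (16.6, 20.7 and 24.3).

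Energy genes stood low with a few exceptions. Of 72 ordered nuclear-encoded genes of the respiratory chain and ATP synthase, 7 were in the top class, 11 in the middle and 54 in the bottom, and the median percentile was 20.2, 19.7 and 14.7. By complex, the medians were 19.8 for complex I (33 genes), 9.69 for complex III with cytochrome c (10), 15.6 for complex IV (10) and 12.1 for the ATP synthase (15). *Atp5l*, a subunit of the ATP synthase, had 0.0637, 0.0628 and 0.0855, *Cycs*, cytochrome c, 0.0905, 0.0677 and 0.0839 and *Ndufb4* 0.0655, 0.0604 and 0.0354, apart from the rest of the list. *Atp5k* and *Uqcrc1* were low with EPR values of 0.00143, 0.00137 and 0.00195 and of 0.00298, 0.00208 and 0.00249, respectively. Glycolytic genes had a median of 31.4, 19.0 and 21.4, lower than the 20 genes of pyruvate dehydrogenase and the TCA cycle at 37.7, 33.9 and 38.7. *Pgam1*, phosphoglycerate mutase, had 0.170, 0.181 and 0.189, *Aldoc* 0.0437, 0.0560 and 0.0326 and *Pgk1* 0.0283, 0.0300 and 0.0363, whereas *Gapdh* had 0.00350, 0.00517 and 0.00547, *Tpi1* 0.00625, 0.00621 and 0.00670 and *Hk1*, the brain hexokinase, 0.00535, 0.00252 and 0.00278. Among TCA cycle genes *Suclg2* had 0.0723, 0.115 and 0.114 and *Suclg1*, the partner subunit of the same enzyme, 0.00377, 0.00494 and 0.00663. The libraries of these 2 subunits did not overlap, but both were named for their places in this same order. *Pdha1* and *Dlat* were also high (89.2 and 88.8), and *Fh1* and *Mdh2* low (11.7 and 12.8).

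Chaperones, which fold proteins, had a median percentile of 18.6, 22.5 and 21.7, and of 34 genes, 6 were in the top class, 5 in the middle and 23 in the bottom. The 7 chaperonin subunits had a median of 6.16, with *Cct7* at 0.00399, 0.00323 and 0.00290 and *Cct5* at 0.00284, 0.00506 and 0.00116, and *Hsp90b1*, the HSP90 of the endoplasmic reticulum, had 0.00274, 0.00418 and 0.00340. *Dnajb6*, *Hspa13* and *Dnaja1* were the highest with 0.0271, 0.0434 and 0.0311, with 0.0194, 0.0297 and 0.0322 and with 0.0281, 0.0287 and 0.0310. No library of these 3 genes overlapped those of the 3 lowest, which follows largely from picking both by these same values.

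Cytoskeletal genes differed by family. Of 12 ordered tubulin genes, 2 were in the top class, 1 in the middle and 9 in the bottom. *Tubg1*, gamma-tubulin, had 0.00233, 0.00309 and 0.00276, *Tubg2* 0.00192, 0.00680 and 0.00594 and *Tubb3*, the neuronal beta-tubulin, 0.00702, 0.00643 and 0.00308. *Tuba1c* exceeded 1 in every library with 10.3, 1.5 and 3, *Tuba1b* had 0.0239, 0.0409 and 0.0294 and *Tubb4a* 0.0166, 0.0198 and 0.0203. The alpha-tubulin genes are near-identical, and their ratios are uncertain. Microtubule-associated proteins, stathmins and neurofilaments had a median of 56.2, from *Dclk2*, *Stmn4* and *Camsap3* (2.43, 3.11 and 9.05) up to *Nefl*, *Map7* and *Map9* (94.1, 90.5 and 85.4). Actin regulators had a median of 56.4, with *Dstn*, destrin, at 0.0752, 0.0873 and 0.101 and *Pfn1*, profilin, at 0.00364, 0.00997 and 0.00400. *Ssh2* and *Cap2* followed *Dstn* (95.6 and 91.0), and *Limk1* and *Sptan1* stood next to *Pfn1* (10.2 and 14.7). Motor genes had a median of 47.0, with *Dynlt3*, *Kif3c* and *Nde1* highest (97.6, 83.0 and 79.3) and *Dynlrb1*, *Dctn1* and *Dctn3* lowest (11.2, 12.8 and 13.1).

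Immediate early genes, which neurons switch on with activity, were low. Of 21 ordered genes, 17 were in the bottom class, 3 in the middle and 1 in the top. The other 9 of the 30 listed were not edited in all 3 libraries. Of all genes listed, 29.5% were edited in all 3, so these genes were edited more often than that share. The median percentile was 10.3, 23.4 and 14.9, so that replicate 2 differed from replicate 1 by more than 10 points. *Fos* had EPR values of 0.00203, 0.00273 and 0.00285, *Bdnf* 0.00175, 0.00257 and 0.00306 and *Fosb* 0.00171, 0.00665 and 0.00262. *Fos* and *Bdnf*, which encode a transcription factor and a neurotrophin, were low in each library, whereas *Fosb* was higher in replicate 2. *Homer1*, given above, was the only member in the top class, and *Egr3* and *Nr4a2* followed it at 49.0 and 47.3, the latter with a range of 61.3 points.

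Nuclear regulators were spread over the order. Chromatin genes had a median of 56.2 (75 genes), nucleoporins and transport receptors 56.3 (49), splicing regulators 49.0 (68), ubiquitin-specific proteases 48.8 (41), transcription factors of projection neurons 48.6 (31) and the mTOR pathway 43.5 (37). *Nup107*, *Nup98* and *Nup160* had EPR values of 0.136, 0.155 and 0.115, of 0.0986, 0.179 and 0.160 and of 0.0585, 0.144 and 0.116, while *Nup62* and *Nup50*, the lowest after *Rae1*, had EPR values of 0.00264, 0.00346 and 0.00597 and of 0.00536, 0.00366 and 0.000855, respectively. The nucleoporin median fell to between 47.1 and 49.1 when any single library was left out, so its side of 50 is not settled. Subunits of the same pore thus lay at both ends. Among chromatin genes *Arid2*, *Kdm6a* and *Hdac4* were highest (97.9, 97.5 and 94.2) and *Kat5*, *Kat2a* and *Smarcd1* lowest (4.07, 6.36 and 8.29). *Taf15*, *Son* and *Mbnl1* led the splicing regulators (94.3, 93.0 and 91.7), and *U2af1*, *Sf3b2* and *Hnrnpm* closed them (2.59, 7.35 and 9.78). *Neurod6*, *Nfia* and *Bcl11b* were the lowest transcription factors (9.18, 11.7 and 14.3). In the mTOR list *Pik3cb* and *Rps6ka3*, kinases upstream of translation, stood at 94.7 and 92.9, and *Nprl2*, *Rraga* and *Pik3r2* at 5.14, 9.28 and 9.31. *Usp34*, *Usp48* and *Usp53* were the highest ubiquitin-specific proteases (97.3, 96.4 and 94.2), and *Usp5*, *Usp27x* and *Usp36* the lowest (3.38, 4.65 and 8.04). Of 15 replication-dependent histone genes, a class whose mRNAs typically lack poly(A) tails, only *Hist1h2bc*, *Hist2h2be* and *Hist3h2a* were ordered, with ranges of 20 points or more. The annotated 3′ UTRs of the ordered genes had a median length of 1700 bases. Another 9 were at 0 in every library, a share near the 61.1% of all genes listed.

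Transcripts of the 3 classes differed in composition and in 3′ UTR length, measures that the ordering did not use. Values were taken from the annotated transcript with the longest coding sequence of 9156 of the 9166 genes. The median GC content was 51.6% in the bottom class, 49.2% in the middle and 45.9% in the top, with quartiles of 47.5% to 55.3% at the bottom and of 42.2% to 50.1% at the top. The median number of Cs with A or T on both sides was 66.2, 69.8 and 72.6 per kb in the bottom, middle and top class, although the share of C among all bases fell from 25.1% to 22.4%. The median 3′ UTR was 816.5 bases long at the bottom, 1420 in the middle and 1634 at the top. The coding sequence was of similar length in all classes, with medians of 1422, 1509 and 1500 bases. The ranges of single genes overlapped widely between classes.

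As a description across genes, the rank correlation of the order with GC content was -0.348 (n = 9156), with Cs between A or T per kb 0.293, with the length of the 3′ UTR 0.227 (n = 8967) and with coding length 0.0394. In single libraries the correlation with GC content was -0.301, -0.328 and -0.346 and that with 3′ UTR length 0.207, 0.201 and 0.219. The correlation with GC content was -0.294 within the 3′ UTR (n = 8459) and -0.230 within the coding sequence. Whether read depth moved with GC content was not tested, because reads per gene were not used. Percentile ranges correlated with GC content at 0.195, so GC-rich genes were also those whose replicates spread more. When genes were cut into 4 groups of GC content and 4 of 3′ UTR length, the median percentile ran from 29.4 in the 860 genes with the highest GC content and shortest 3′ UTRs to 70.9 in the 890 genes with the lowest GC content and longest 3′ UTRs. Within each GC group, the group with the longest 3′ UTRs was above that with the shortest, and within each UTR group the median fell from the lowest to the highest GC content.

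**Figure D5:**
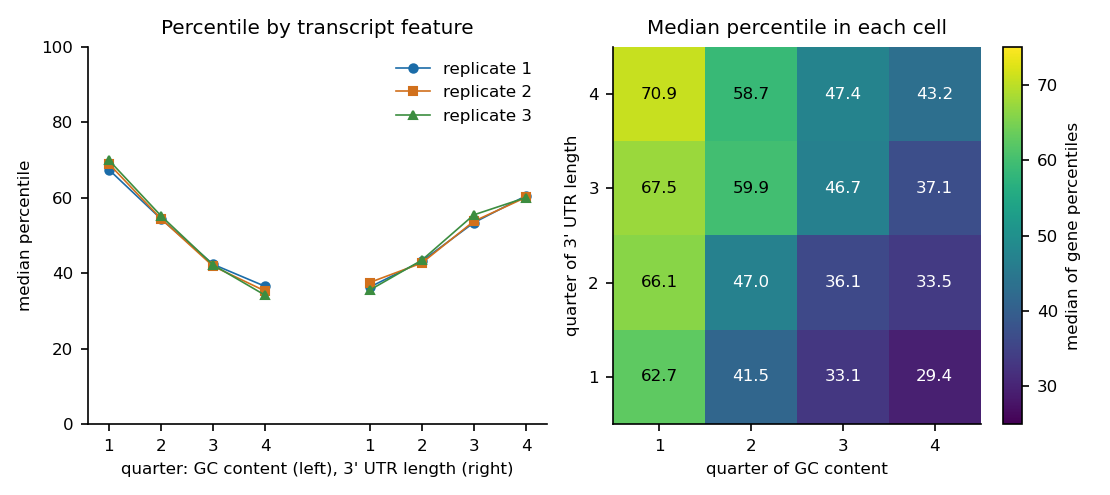
Left, median percentile in each replicate of genes cut into 4 groups of equal size by GC content of the transcript and by 3′ UTR length (1 lowest or shortest, 4 highest or longest). Right, median of the gene percentiles in each combination of the groups; the lowest GC content with the longest 3′ UTRs had 70.9 and the highest GC content with the shortest 3′ UTRs 29.4.

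Most lists at both ends kept their side of the order when each gene was set against the median of its own GC and 3′ UTR group. Long noncoding RNAs were left out, because only 1 of the 11 ordered had such a group. Whether GC content and 3′ UTR length account for the list medians was not tested. Proteasome genes had a median difference of -24.6 points, with 30 of 32 genes below their group. Respiratory chain genes had -20.5 points (56 of 72 below), ribosomal protein genes -18.6 (57 of 71), chaperones -25.6 (27 of 34) and immediate early genes -23.2 (18 of 21). GABA-A receptor genes had a difference of 20.2 points (2 of 15 below), CaM kinase genes 23.2 (5 of 20), pump genes 23.2 (4 of 18) and vesicle genes 16.0 (17 of 62). Rab genes had 9.28 points, and nucleoporin genes changed side, with -7.24. For the proteasome, respiratory chain, ribosomal protein, chaperone, immediate early, GABA-A and Rab lists, the difference was smaller than the median's distance from 50. For CaM kinase, pump and vesicle genes it was larger. Across the 37 lists the median percentile correlated with the median 3′ UTR length of the list at 0.646 and with its median GC content at -0.106. These lists include some with few ordered genes, and the 3′ UTR length of the long noncoding RNA list came from 1 gene. Across single genes the correlation was stronger with GC content (-0.348) than with 3′ UTR length (0.227).

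Position in the genome showed smaller differences. Among the chromosomes with more than 100 ordered genes, the median percentile was highest on X (62.1, 371 genes, median GC content 45.7%) and lowest on chromosome 11 (41.3, 685 genes, 51.4%) and chromosome 7 (42.2, 604 genes, 51.8%). In replicates 1, 2 and 3 the X chromosome had medians of 66.8, 61.7 and 60.9, and chromosome 11 medians of 43.6, 44.0 and 45.3.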

How the data were processed

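RNA of the 3 RPL10A-STAMP replicates was selected for poly(A) and sequenced as stranded single-end reads. Per the study's methods, the authors used cutadapt for trimming, STAR for alignment to mm10 (reads that fit up to 10 places were kept), SAILOR for C-to-U edits and featureCounts for reads. They deposited, for each gene, the ratio of edits to reads (EPR), with no scaling between libraries. Edits and reads were not given separately, so neither depth nor counting intervals could be derived. Samples were grouped by their GEO labels, and the RPL22-STAMP libraries were not used here.

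EPR was ranked in each library over the 9166 genes with a value above 0 in all 3, with ties averaged, and ranks were scaled to percentiles from 0 to 100. The order followed the median of the 3 percentiles, and 3 classes of nearly equal size were formed. Since EPR chose and ordered the genes, no test was made, and errors are the SD or range over 3 libraries. The members and gene lists were chosen with earlier results of these data known. Named genes were the 10 highest and 10 lowest genes, the 10 lowest protein-coding genes, the 10 highest nuclear protein-coding genes with EPR of at most 1 and at most 10% of exon bases shared, the 10 list members nearest to percentile 50 with a range within 10 points, the 3 highest and 3 lowest members of a list, the 5 widest ranges, *Rpl10a* and *Camk2a*, and genes counted in groups of 5 or fewer. Examples outside these rules (markers, border genes and single mitochondrial genes) were named for the comparison beside them.

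Features came from the GENCODE mouse annotation release M21 on GRCm38, with 1 transcript per gene, chosen for its coding length; 42 listed genes, 6 of them ordered, had no entry. Of the listed symbols, 10 were not found. Work was done with samtools 1.23.1 and, under Python 3.11.15, with scipy 1.17.1, pandas 2.3.3, numpy 2.4.6 and matplotlib 3.10.9, and the ranking was tested on simulated data. Alternatives changed the threshold on EPR, the number of libraries, how ranks were joined, the treatment of genes at 0, the class size, overlapping genes, the transcript and each replicate in turn. Some list members that these rules name are not reported here.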

Additional observations from a re-analysis of the deposited data

How the results depend on the processing

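With classes of 10% in place of the 3 classes, the median EPR was 0.00413 at the bottom and 0.0617 at the top, against 0.00669 and 0.0318, and 16.8% of genes were in the same of 10 groups in all 3 libraries, against 53.1% for 3 classes. Leaving out a replicate leaves 2 libraries to compare, and by construction raised the share of genes in the same class to between 66.3% and 68.1% and lowered the median percentile range to between 10.9 and 11.6 points in the bottom class, 14.04 and 15.2 in the middle and 4.08 and 5.01 in the top. The rank correlation of the order with Cs between A or T per kb was 0.267 for the longest transcript in place of 0.293, and that with 3′ UTR length lay between 0.216 and 0.229 without a replicate. The number of genes with EPR above a limit in all 3 libraries was 30 for a limit of 1 and 51 for 0.5. The ordered genes numbered 9133 with EPR of at least 0.001, 10620 when edited in at least 2 libraries and between 9570 and 9719 without a replicate. With genes edited in at least 1 library and values of 0 ranked lowest, list medians shifted by a median of 5.41 points and 5 of 35 lists changed their side of 50. Leaving out a replicate moved lists near the middle across 50: nucleoporins (any replicate), ionotropic glutamate receptors and ubiquitin-specific proteases (2 or 3), splicing regulators (1), and motors and mitochondrially encoded mRNAs (2). Without genes that share exons, the median of the mitochondrially encoded mRNAs fell by 15.6 points. The rank correlations with GC content, Cs between A or T per kb and 3′ UTR length kept their sign under the alternatives run. Class values and counts are never below 0, so no reversal was possible for them. No paired analysis was possible because the 3 libraries form 1 group and no groups were compared. Depth limits every value here, since the reads behind a ratio are unknown and a low or high EPR of a gene with few reads cannot be recognised.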
